A study of Lissachatina fulica and Mizuhopecten yessoensis with 12 samples.

Results

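The atrium of the giant African snail (Lissachatina fulica, a land gastropod) was set against the ventricle of the same species. The comparison used the 6 snail libraries of the deposited snail table, 3 from atria and 3 from ventricles, and all rows whose mean over the 6 libraries was at least 10 normalized counts. That kept 1489 of the 1886 snail rows, of 6081 rows in the snail and scallop tables together. Each row is 1 gene model, and 849 of the tested rows carried a gene symbol (725 different symbols) while 640 had an identifier only.

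Both snail groups were adult hearts labelled wild type (WT), differing in the tissue region taken: atrium or ventricle. Scallop atria and ventricles, also WT adult hearts with 3 libraries each, served only for the species comparison at the end. Messenger RNA was selected by its poly-A tail and copied with random primers before sequencing. The labels do not give sex or an exact age, and leave unsaid if each replicate is its own snail, if tissue was pooled, or if an atrium and a ventricle came from one body. The p-values therefore reflect library-to-library spread alone, which may be technical.

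In gastropods such as land snails, hemolymph returns to a thin-walled atrium, which passes it to a thicker, muscular ventricle that pumps it into the arteries. The beat starts in the muscle itself and is tuned by nerves and peptides. In many molluscs, podocyte-like cells of the heart wall also filter hemolymph into the pericardial space.

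Levels are the authors' normalized counts, scaled by library and not corrected for gene length, so they are compared between chambers and not between genes. Differences are log2 fold changes of atrium over ventricle, computed on log2(normalized count + 1) with limma and given with their SE, so positive values mean higher in the atrium. To pass, a row needed at least a 2-fold change and a limma p, adjusted by Benjamini-Hochberg over all 1489 rows, below 0.05. The authors' deposited table listed only genes already selected as different (unadjusted p up to 0.05 and absolute log2 fold change of at least 1.001), so passing the test re-describes that selection and is no independent evidence. In whole chambers, fewer cells of a type and less RNA per cell cannot be told apart. Symbols are annotation names borrowed from other animals, not ortholog calls, and reads of closely similar copies may be shared or divided between them.

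Reads on the tested rows numbered 1050526, 763070 and 1158606 in the atria, against 740214, 680096 and 605685 in the ventricles. Ventricles resembled each other closely: over the tested rows, log2 levels correlated at r = 0.94 to 0.95 between ventricle libraries. Atria 1 and 3 correlated at 0.92, but atrium 2 stood apart, with r = 0.77 to atrium 1, 0.63 to atrium 3 and 0.65 to 0.69 to the ventricles. The first principal component held 78.3% of the variance and placed atria 1, 2 and 3 at 60.6, 21.3 and 75.7, against -51.4, -51.8 and -54.5 for the ventricles, so atrium 2 lay on the atrial side but nearest to the ventricles. These correlations are descriptions over rows that are not independent and were selected as different.

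In all, 1249 rows passed (83.9% of those tested), 698 of them toward the atrium (46.9%) and 551 toward the ventricle (37%), while 240 did not. Without atrium 2 the numbers were 764 (51.3%) and 518 (34.8%), and no row changed direction. Atrial differences were larger: 247 of the 698 atrial rows differed at least 8-fold and 83 at least 32-fold, against 50 and 17 of the 551 ventricular rows. A symbol was carried by 49.4% of the atrial rows and 70.1% of the ventricular rows. No read was found in any ventricle for 36 atrial rows, and none in any atrium for 6 ventricular rows. The size factors that divide the reads differed between chambers: they were at least 1.319 in the atria and at most 0.9262 in the ventricles. The same normalized level therefore stood for fewer reads in a ventricle, which makes rows without reads likelier there. Total library size is unknown, so the size factors were not taken as a measure of read depth. Their part in the contrast of 36 and 6 was not tested. All 3 atria lay above all 3 ventricles in 46.6% of tested rows and below them in 39.6%. The median log2 difference was 1.22 over all tested rows and is the background for the medians below. Selection left few rows with small differences, so such a median mainly shows which chamber held more rows. Among rows with a mean of at least 50 it was -0.97. The balance of the chambers depended on scaling and level: atrial rows made up 55.9% of the calls, 34.9% after quantile normalization (319 atrial, 595 ventricular, median of all rows 0.20) and 44.9% among rows with a mean of at least 50 (323 and 397). Genes named outside the fixed rule given in the processing section were chosen after their values were seen.

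**Figure D1:**
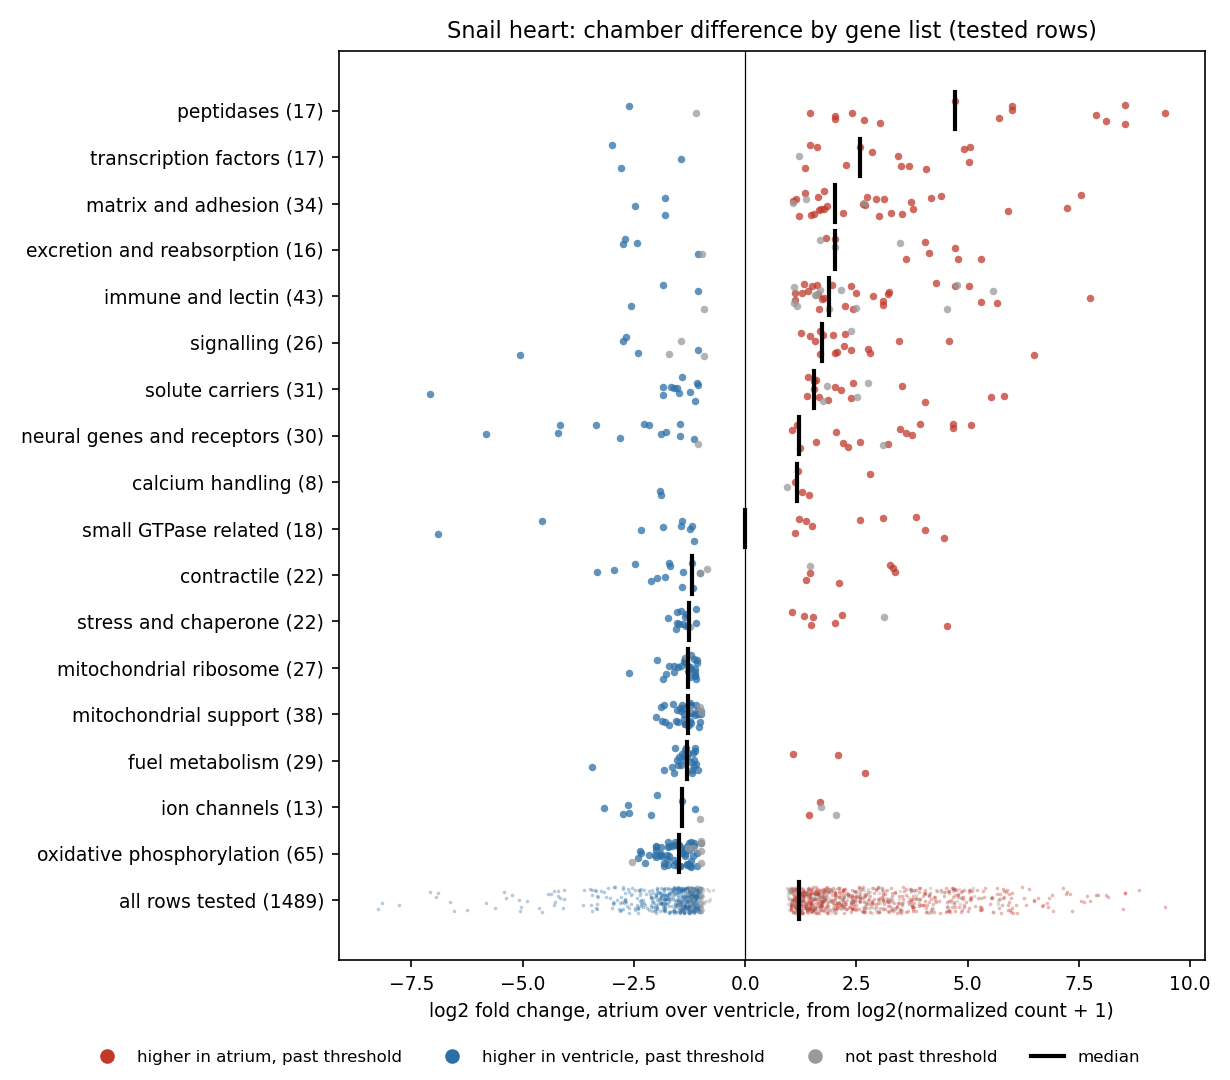
Log2 fold change of atrium over ventricle (x axis) for the tested rows of 17 gene lists and for all 1489 tested rows, with the number of rows in brackets and the median as a black bar. Respiratory, mitochondrial and fuel lists sit left of 0 (higher in the ventricle), peptidases, matrix, immune and transcription factor lists mostly right of 0; the empty band around 0 comes from the authors' selection of changed genes.

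Contractile genes were mostly higher in the ventricle. Of 22 tested rows, 6 passed toward the atrium, 13 toward the ventricle and 3 did not pass (background 46.9% and 37%), with a median log2 difference of -1.18; after quantile normalization the ventricular count was 8. Summed over the list, the atria held 144712, 146180 and 119455 normalized counts, against 329337, 590887 and 314488 in the ventricles. Ventricle 2 was the highest ventricle in 9 of the 13 ventricular rows.

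The main row named unc-54, after the worm's body-wall muscle myosin heavy chain, had 92959, 88397 and 74528 normalized counts in the atria, against 192818, 328336 and 183428 in the ventricles. The groups did not overlap and the log2 difference was -1.41 ± 0.27 (adjusted p = 0.00451). Tm2, named for a fly tropomyosin that lies along actin, had 3681, 3667 and 3072 normalized counts in the atria, against 19610, 46402 and 20937 in the ventricles, with a log2 difference of -2.95 ± 0.35 (adjusted p = 0.00101). Every ventricle thus exceeded every atrium, as was also seen for mlc-4 (a regulatory myosin light chain name from the worm; Afu001782, -2.48 ± 0.33) and its second row (Afu000104, -2.11 ± 0.34).

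The troponins, which couple calcium to contraction, followed the same direction. TNNT2 had 1688, 2000 and 1359 normalized counts in the atria, against 4742, 5580 and 5829 in the ventricles (-1.69 ± 0.21), and TNNI2 differed by -1.72 ± 0.39. An actin row named ACTB (Afu006397) differed by -1.79 ± 0.43, with 11437, 13971 and 12447 normalized counts in the atria, against 37236, 85993 and 25613 in the ventricles; ventricle 2 was far above the other ventricles. Both paramyosin rows (unc-15), which form the thick filament core in invertebrate muscle, passed at -1.17 ± 0.33 and -1.2 ± 0.38 but fell under the 2-fold limit without ventricle 2, at -0.85 and -0.78. The first also fell below that limit without atrium 3 (-0.97), and the second lost its call without atrium 1 (adjusted p = 0.0652).

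A smaller set of contractile genes ran the other way. SYNPO2L, a Z-disc protein of vertebrate muscle, had 2425, 2369 and 2085 normalized counts in the atria, against 853, 1081 and 744 in the ventricles (1.37 ± 0.21). MYO18B, an unconventional striated-muscle myosin, differed by 1.45 ± 0.24, the small heat-shock protein CRYAB by 2.11 ± 0.36 and SMTN, an actin-binding protein of vertebrate smooth muscle, by 3.32 ± 0.73. In each of these 4 genes all atria lay above all ventricles. A row of unc-22 (twitchin, a giant muscle kinase; Afu013995) was also atrial at 3.37 ± 0.80, while the other (Afu009731, -0.85 ± 0.44) did not pass.

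**Figure D2:**
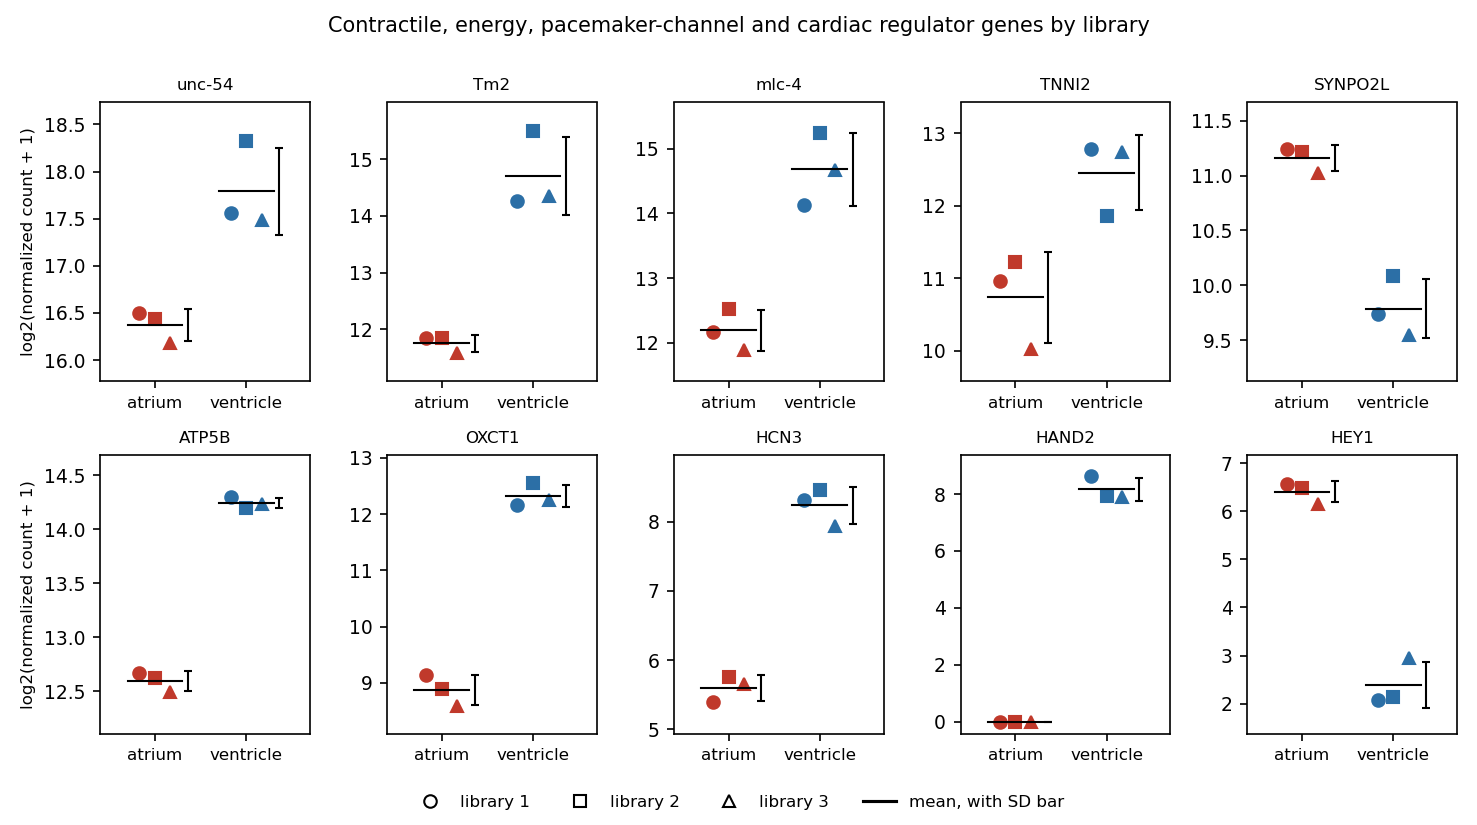
Log2(normalized count + 1) per library for 10 genes, atria (red) left of ventricles (blue), with symbols for libraries 1 to 3, the mean as a line and the SD as a bar (n = 3). unc-54, Tm2, mlc-4, TNNI2, ATP5B, OXCT1, HCN3 and HAND2 lie higher in the ventricle, SYNPO2L and HEY1 higher in the atrium, with no overlap in any panel.

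Several symbols had rows for either chamber. Of 95 symbols with several tested rows, 15 had rows that passed in opposite directions. Mlc1, named for a fly essential myosin light chain, had a ventricular row (Afu017761) at 514, 1187 and 471 normalized counts in the atria, against 7070, 6856 and 5950 in the ventricles (-3.32 ± 0.37). Its atrial row (Afu021142) had 3131, 2961 and 2020 normalized counts in the atria, against 275, 355 and 214 in the ventricles (3.26 ± 0.28). Neither row overlapped between chambers, so the light chain rows mirrored each other.

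ATP2A2, the calcium pump that refills the sarcoplasmic reticulum, showed the same split. The ventricular row (Afu011362) had 8620, 5817 and 5432 normalized counts in the atria, against 25690, 21786 and 25156 in the ventricles (-1.90 ± 0.23), and the atrial row (Afu010007) had 770, 600 and 939, against 315, 340 and 288 (1.27 ± 0.23). JPH3, a junctophilin that ties surface membrane to the calcium store, was ventricular (-1.92 ± 0.31), and the calcium sensor CALM3 was atrial (2.81 ± 0.72). Of 8 tested calcium handling rows 5 passed toward the atrium and 2 toward the ventricle, with a median of 1.16. Over all tested rows 46.9% and 37% did, with a median of 1.22, so the list median was near that of all rows. The atrial count was 2 without atrium 1 and 3 without atrium 3, ventricle 2 or ventricle 3, and the rows lost were CAMK2G, a calcium-activated kinase, and TMEM38B, a reticulum ion channel. CAMK2G and a TMEM38B row (Afu007688) turned direction after quantile normalization (-0.09 and -0.16).

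BMP10, a growth factor of the BMP family that the mouse heart makes, also split by row. Its row Afu015655 had 115, 82.7 and 54.5 normalized counts in the atria, against 1594, 2612 and 4825 in the ventricles (-5.06 ± 0.46, adjusted p = 0.000499). Its row Afu004624 had 3214, 3567 and 3582 normalized counts in the atria, against 533, 740 and 974 in the ventricles (2.24 ± 0.26, adjusted p = 0.000869). Each row was high in one chamber without overlap, so both chambers held a BMP10-named transcript at high counts.

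REM1, a small GTPase of the family that restrains calcium channels in vertebrates, had 5 tested rows. They were atrial in 3 rows (Afu012335, 4.46 ± 0.97; Afu012334, 4.04 ± 0.77; Afu012333, 3.83 ± 0.42) and ventricular in the other two (Afu019953, -4.57 ± 0.43; Afu012136, -2.35 ± 0.56). Row Afu019953 had 10.9, 35.6 and 22.6 normalized counts in the atria, against 445, 606 and 515 in the ventricles. RHOQ, another small GTPase, was far higher in the ventricle, with 2.19, 0.758 and 1.99 normalized counts in the atria, against 287, 294 and 328 in the ventricles (-6.89 ± 0.35, adjusted p = 8.03e-05). Of the list of 18 small GTPases and regulators 9 passed toward each chamber, against 46.9% atrial and 37% ventricular over all tested rows. After quantile normalization 3 were atrial and 9 ventricular.

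**Figure D3:**
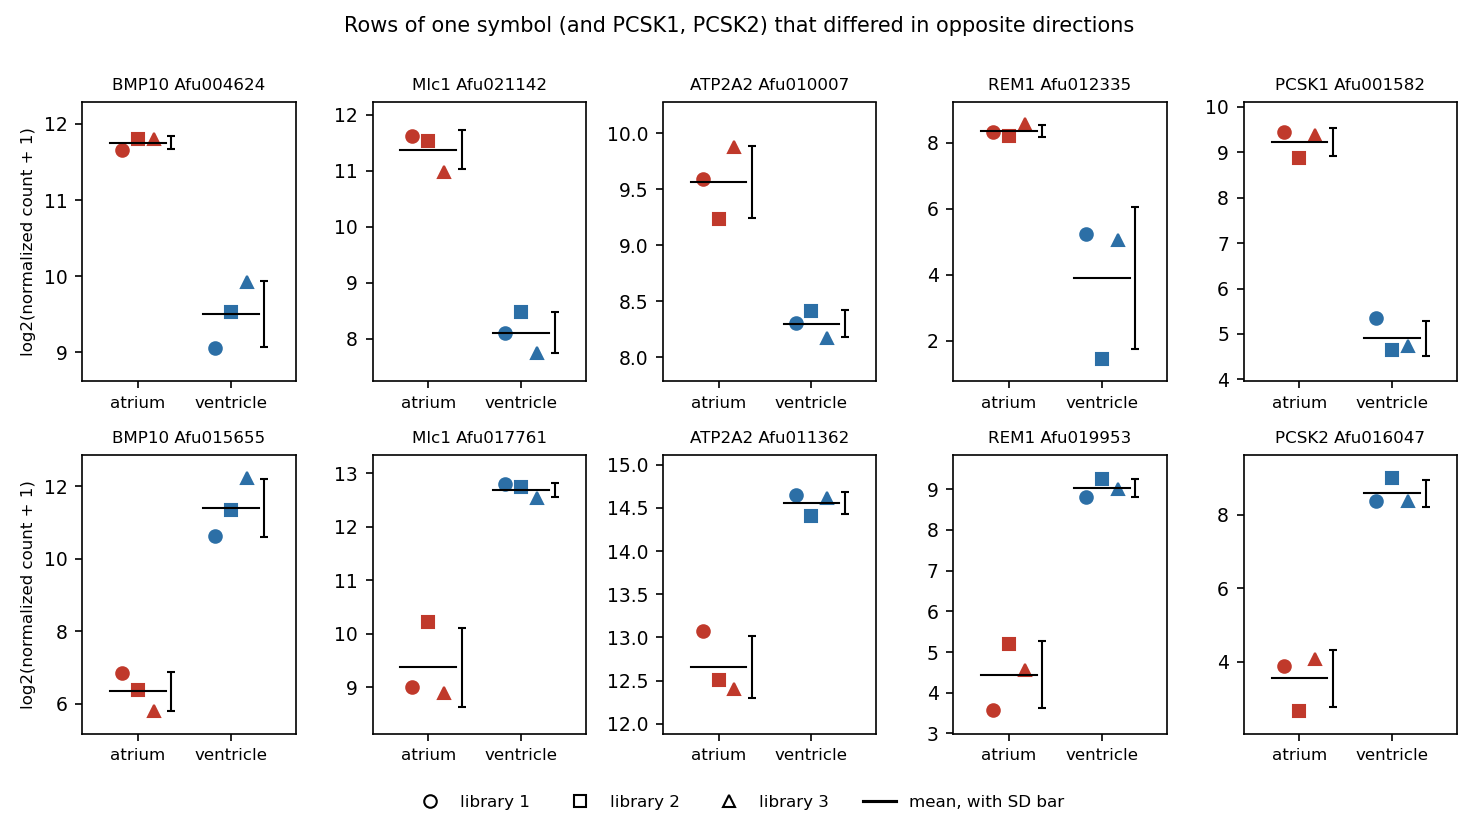
Log2(normalized count + 1) per library, atria (red) left of ventricles (blue), with mean and SD (n = 3). The upper row shows BMP10, Mlc1, ATP2A2, REM1 and PCSK1 rows that were higher in the atrium, and the lower row BMP10, Mlc1, ATP2A2, REM1 and PCSK2 rows that were higher in the ventricle.

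Respiratory chain genes were lower in the atrium. All 65 tested respiratory and ATP synthase rows had negative log2 differences (-0.99 to -2.54, median -1.49). Of them, 58 passed toward the ventricle and 7 did not pass, none toward the atrium (background 37%). Summed levels were 56589, 55498 and 44983 normalized counts in the atria, against 143149, 169322 and 164293 in the ventricles.

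The direction held in each complex. Of the NADH dehydrogenase rows (complex I) 25 of 26 passed (median -1.50), of succinate dehydrogenase 4 of 4 (-1.24), of the cytochrome bc1 complex 5 of 5 (-1.34), of cytochrome c oxidase 6 of 7 (-1.83) and of ATP synthase 10 of 11 (-1.49). Among 9 assembly factors 5 passed (-1.15). ATP5B, the catalytic ATP synthase subunit (Afu002960), had 6518, 6294 and 5761 normalized counts in the atria, against 20095, 18797 and 19241 in the ventricles (-1.65 ± 0.17). COX6A1, a cytochrome c oxidase subunit, had 963, 1113 and 903 normalized counts in the atria, against 4245, 6004 and 4946 in the ventricles (-2.34 ± 0.21). The groups did not overlap, and atrium 2 lay with the other atria in both genes. COX6C did not pass (-2.54, adjusted p = 0.0566), with 427, 575 and 140 normalized counts in the atria, against 3256, 350 and 5938 in the ventricles. Ventricle 2 fell among the atria, and without atrium 2 the row passed (-2.95, adjusted p = 0.0446).

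Genes of mitochondrial translation and import had the same direction. Of 27 mitochondrial ribosomal rows 26 passed toward the ventricle (median -1.28). Of 38 other mitochondrial rows (among them import, folding, iron-sulfur clusters and quinone synthesis) 35 did (median -1.28). Over all tested rows 37% did. The list of other mitochondrial rows was made only after the table's symbols were seen, so its share is no independent evidence. The mitochondrial enzymes GLUD1 (1.53) and ABAT (1.17), higher in the atrium, were not in it. MRPL51, a large-subunit protein, had 637, 704 and 488 normalized counts in the atria, against 1471, 3051 and 1977 in the ventricles (-1.78 ± 0.31). VDAC2, the outer-membrane pore, differed by -1.61 ± 0.20 and the import protease PMPCB by -1.55 ± 0.18. SLC25A31, an ADP/ATP carrier, had 10461, 9393 and 7643 normalized counts in the atria, against 23690, 38816 and 26345 in the ventricles (-1.67 ± 0.25), and the phosphate carrier SLC25A3 differed by -1.59 ± 0.27.

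Fuel enzymes followed. Of 29 rows 3 passed toward the atrium and 26 toward the ventricle (median -1.30), against 46.9% and 37% of all tested rows. OXCT1, which activates ketone bodies for oxidation, differed most: it had 561, 476 and 385 normalized counts in the atria, against 4590, 5973 and 4887 in the ventricles (-3.45 ± 0.22, adjusted p = 0.000217). The citrate cycle enzymes MDH2 (Afu010202, -1.64 ± 0.27) and IDH2 (-1.30 ± 0.27), both citrate synthase rows (-1.83 and -1.07) and the glycolytic enzyme TPI1 (-1.57) were also ventricular. The second citrate synthase row was under the 2-fold limit without atrium 2 (-0.89) or ventricle 2 (-0.90).

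The 3 atrial fuel rows included PCK1, which makes phosphoenolpyruvate for glucose synthesis, and bdh1, which interconverts ketone bodies (2.08 ± 0.52). PCK1 had 48.9, 124 and 513 normalized counts in the atria, against 25.9, 15.4 and 25.5 in the ventricles (2.70, adjusted p = 0.0193). It was unevenly spread over the atria, and its call was lost without ventricle 1 (adjusted p = 0.0508) or ventricle 2 (0.0679). Both amylase rows (AMY2A) were ventricular at -3.49 ± 0.36 and -2.97.

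Stress and chaperone genes went either way. Of 22 rows 7 passed toward the atrium and 13 toward the ventricle (median -1.26), against 46.9% and 37% of all tested rows. The mitochondrial superoxide dismutase SOD2 was ventricular in both rows (-1.49 ± 0.23 and -1.74 ± 0.25), as were the peroxiredoxin Prx5 (-1.39 ± 0.21) and the mitochondrial chaperone HSPA9 (-1.56 ± 0.26). The secreted superoxide dismutase SOD3 was atrial, with 163, 56.1 and 134 normalized counts in the atria, against 2.16, 1.71 and 10.7 in the ventricles (4.54 ± 0.69), and so was the peroxisomal catalase CAT (2.18 ± 0.28). Without atrium 3 the ventricular count was 8.

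Several ion channels of rhythm and excitability were lower in the atrium. HCN3, a hyperpolarization-activated channel of the pacemaker family, had 40.9, 53.1 and 49.2 normalized counts in the atria, against 316, 350 and 245 in the ventricles (-2.64 ± 0.25, adjusted p = 0.000615), and its second row differed by -2.62 ± 0.62. Both rows of CACNA1G, a low-voltage calcium channel, were ventricular (-1.97 ± 0.49 and -2.11 ± 0.34), as was KCNIP4, a potassium channel partner (-3.18 ± 0.50). In all, 2 of 13 tested channel rows passed toward the atrium and 8 toward the ventricle (median -1.42), against 46.9% and 37% of all tested rows. Without ventricle 2 the ventricular count was 5.

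Cardiac transcription factors had 3 of 4 rows atrial and 1 ventricular (median 1.15). Over all tested rows 46.9% were atrial and 37% ventricular, with a median of 1.22, so the list median was near that of all rows. HAND2, a transcription factor that the vertebrate ventricle needs to form, had no read in any of the 3 atria, against 395, 246 and 239 normalized counts in the ventricles. Set against a floor of 3 reads over the 3 libraries, it was at least 426-fold lower in the atria. HEY1, a Notch-driven repressor, had 94.2, 88.7 and 70.5 normalized counts in the atria, against 3.24, 3.42 and 6.72 in the ventricles (4.01 ± 0.39). GATA6 was atrial by 1.23 ± 0.25 and HES1, another Notch-linked repressor, by 1.08 ± 0.23, though HES1 was under the 2-fold limit without atrium 1 (0.93).

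Of other transcription factors, 13 of 17 rows passed toward the atrium and 3 toward the ventricle (median 2.59), against 46.9% and 37% of all tested rows. After quantile normalization 7 were atrial and 3 ventricular. EGR1, an immediate-early factor induced by stimulation, had 1228, 1364 and 991 normalized counts in the atria, against 216, 41.0 and 145 in the ventricles (3.43 ± 0.58). CEBPB, a factor of inflammation and metabolism, differed by 3.50 ± 0.47, and TCF21, which marks epicardium and its derivatives in vertebrates, by 4.92 ± 0.41, with 127, 107 and 87.1 normalized counts in the atria, against 3.24, 3.42 and 1.34 in the ventricles. EBF2 (5.02 ± 0.64) and the vitamin D receptor VDR (2.84 ± 0.45) were atrial as well. SALL1 (-2.79 ± 0.41) and SIX4 (-2.99 ± 0.59), both developmental regulators, were ventricular, with 2.92, 0.758 and 3.32 normalized counts of SIX4 in the atria, against 25.9, 18.8 and 26.9 in the ventricles.

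Of 26 signalling rows 17 were atrial and 5 ventricular (median 1.72), against 46.9% and 37% of all tested rows (median 1.22), and after quantile normalization 11 were atrial and 8 ventricular. CRIM1, a membrane protein that binds BMPs, had 256, 107 and 171 normalized counts in the atria, against 5.40, 0 and 0 in the ventricles (6.50 ± 0.81). The Wnt receptors split: FZD9 had 751, 623 and 648 normalized counts in the atria, against 88.5, 37.6 and 64.5 in the ventricles (3.46 ± 0.34), whereas both FZD5 rows were ventricular (-2.41 ± 0.48 and -2.68 ± 0.45). The hedgehog coreceptors split as well, with CDON atrial in both rows (4.59 and 2.80) and GAS1 ventricular (-2.74).

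The prohormone convertases, which cut peptide hormones out of their precursors, were opposed. PCSK1 had 698, 469 and 659 normalized counts in the atria, against 39.9, 23.9 and 25.5 in the ventricles (4.32 ± 0.30, adjusted p = 0.000228). PCSK2 (Afu016047) had 13.9, 5.31 and 16.0 normalized counts in the atria, against 328, 507 and 331 in the ventricles (-5.03 ± 0.44, adjusted p = 0.00049). Neither gene overlapped between chambers. The second PCSK2 row pointed the same way (-3.44) but lost its call without ventricle 1 (adjusted p = 0.0605). FURIN, the general convertase (1.29 ± 0.25), and PTPRN, a dense-core vesicle protein (2.58 ± 0.36), were atrial.

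Of 30 receptor and neural rows 16 were atrial and 12 ventricular (median 1.2), near the 46.9% and 37% of all tested rows (median 1.22), and after quantile normalization 9 were atrial and 13 ventricular. Receptors for prostaglandins were atrial: PTGER4 had 378, 408 and 291 normalized counts in the atria, against 6.48, 34.2 and 9.41 in the ventricles (4.67 ± 0.58), and PTGIR differed by 3.94 ± 0.70. The serotonin receptor name HTR2C was ventricular in both rows (-1.89 ± 0.37 and -4.21 ± 0.64). GPR83, a peptide-receptor-like protein, had no read in the atria, against 56.1, 75.2 and 41.7 normalized counts in the ventricles, which made it at least 78.7-fold lower in the atria.

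Channel subunits for glutamate went either way. Both rows of GRIA2, an AMPA-type channel subunit, were ventricular, the first with 10.2, 12.9 and 8.64 normalized counts in the atria, against 140, 149 and 73.9 in the ventricles (-3.35 ± 0.37), and the second at -1.78 ± 0.42. GRIN2B, an NMDA-type subunit, had 23.4, 19.7 and 32.6 normalized counts in the atria, against no read in the ventricles, so it was at least 19.2-fold higher in the atria. Further receptors followed either chamber: the neuromedin receptor name NMUR1 was ventricular (-4.16 ± 0.62), and the dopamine receptor name DRD1 (3.62 ± 0.53) and the peptide receptor name QRFPR (3.75 ± 0.47) were atrial. Markers of neurons in the table were the vesicular acetylcholine transporter unc-17 (1.60 ± 0.33), 2 rows of SYT2, ELAVL4 and SYT15. Apart from unc-17, they summed to 130 to 239 normalized counts in the atria, against 29.6 to 52.9 in the ventricles. SYT15 did not pass (adjusted p = 0.0683), with 29.9, 0.758 and 35.9 normalized counts in the atria. SYT2 row Afu006176 lost its call without atrium 1, atrium 2, ventricle 1 or ventricle 3 (adjusted p = 0.0712 to 0.111). ELAVL4 lost its call without atrium 1, atrium 3 or ventricle 3 (0.0534 to 0.0817). The part of these markers in the receptor differences was not tested.

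Peptidases had the highest median of the lists with at least 5 tested rows. Of 17 rows 15 passed toward the atrium and 1 toward the ventricle, with a median of 4.71, against 46.9% and 37% of all tested rows. All 8 rows named CPVL, a serine carboxypeptidase, were atrial, at 3.03 to 9.44, so the count and median of the list rest largely on this 1 symbol. The first (Afu021770) had 8074, 6174 and 7545 normalized counts in the atria, against 37.8, 6.83 and 2.69 in the ventricles (9.44 ± 0.79, adjusted p = 0.000463). A neighbour in the identifier series (Afu021768) had 5965, 6181 and 7539 normalized counts in the atria, against 45.3, 10.2 and 9.41 in the ventricles (8.54 ± 0.57). All atria were high and all ventricles low in each row, and atrium 2 did not stand apart. The 6 rows with consecutive identifiers from Afu021765 to Afu021770 may share reads if their sequences are alike, which was not tested.

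Peptidases that trim signalling peptides were also atrial. ACE, a dipeptidase of the angiotensin-converting type, had 46.7, 52.3 and 54.5 normalized counts in the atria, against no read in the ventricles, so it was at least 38.6-fold higher in the atria. The metalloproteases MEP1B (4.71 ± 0.84) and MMEL1 (2.66 ± 0.36) and the procollagen-cutting BMP1 (2.03 ± 0.22) followed. The ventricular call of the list was SPINK9, a Kazal-type inhibitor of peptidases and not a peptidase. It had 8.76, 9.10 and 9.31 normalized counts in the atria, against 78.8, 39.3 and 72.6 in the ventricles (-2.62 ± 0.38).

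Extracellular matrix genes were largely atrial, with 28 of 34 rows atrial, 3 ventricular and a median of 2.02. Over all tested rows 46.9% were atrial and 37% ventricular. THSD4, a fibrillin-binding matrix protein (Afu001325), had 10738, 7648 and 6376 normalized counts in the atria, against 58.3, 164 and 14.8 in the ventricles (7.23 ± 0.79). FRAS1 and FREM1, which join basement membrane to tissue below, differed by 7.54 ± 1.03 and 4.40 ± 0.53. NID1, a basement membrane linker, had 2454, 2566 and 2434 normalized counts in the atria, against 242, 260 and 363 in the ventricles (3.13 ± 0.22). EGFLAM, a basement membrane protein, differed by 5.91 ± 0.60, and both COL28A1 rows by 2.73 ± 0.53 and 2.70 ± 0.62.

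The fibrillar collagen COL5A2 had high counts in both chambers, at 13242, 6335 and 13511 normalized counts in the atria, against 6699, 4396 and 3519 in the ventricles (1.15 ± 0.38, adjusted p = 0.0268). Atrium 2 fell below ventricle 1, so the groups overlapped, and the call was lost without atrium 1 (adjusted p = 0.0802), atrium 3 (0.0668), ventricle 2 (0.0764) or ventricle 3 (0.0931). LAMA4, a laminin chain of vessel and muscle basement membrane, was ventricular with 65.7, 162 and 132 normalized counts in the atria, against 477, 813 and 640 in the ventricles (-2.48 ± 0.39). SPON2 (-1.79 ± 0.36) and SVEP1 (-1.79 ± 0.45), both secreted adhesion proteins, were ventricular too.

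Solute carriers outside the mitochondrial ones included members of both chambers. SLC17A5, the lysosomal sialic acid exporter, had 13.1, 14.4 and 3.32 normalized counts in the atria, against 1664, 658 and 2166 in the ventricles (-7.09 ± 0.64). SLC5A9, a sodium-coupled sugar transporter, had 152, 194 and 243 normalized counts in the atria, against 1.08, 8.54 and 2.69 in the ventricles (5.53 ± 0.58). SLC3A1 and SLC7A9 form the heavy and light subunits of a cystine transporter in mammals; SLC3A1 was atrial (3.52 ± 0.38) and SLC7A9 ventricular (-1.85 ± 0.32). In the whole list 15 of 31 rows were atrial and 12 ventricular (median 1.55), near the 46.9% and 37% of all tested rows, and after quantile normalization 6 were atrial and 11 ventricular.

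Many rows high in atria 1 and 3 were at ventricular level in atrium 2. In 93 tested rows, 23 of them with a symbol, atria 1 and 3 both lay at least 4-fold above every ventricle while atrium 2 did not exceed all ventricles. The same count was 0 for atrium 1, 0 for atrium 3, 0 for ventricles 1 and 3, and 1 for ventricle 2. The rows open to this rule were unequal in number: 317 for atrium 2, against 166 and 167 for atria 1 and 3. They were 71, 68 and 68 for ventricles 1, 2 and 3. This rule was set after the data were seen. Atrium 3 exceeded atrium 1 in 82 of the 93 rows, by a median of 2.75-fold. With all libraries 25 of the 93 passed the threshold, and without atrium 2 all 93 did. The rule already sets the libraries left without atrium 2 at least 4-fold apart. Passing without atrium 2 therefore follows largely from the rule and is no independent evidence, also for single rows of the 93 given below.

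Lectins and endocytic receptors were among the named rows with this pattern. MRC1, a mannose receptor, had 2692, 91.0 and 9700 normalized counts in the atria, against 189, 389 and 181 in the ventricles. Its log2 difference was 2.49 ± 1.56 (adjusted p = 0.159) with all libraries and 4.42 (adjusted p = 0.00121) without atrium 2. CD209, a C-type lectin (Afu008482), had 1757, 66.7 and 6457 normalized counts in the atria, against 154, 389 and 145 in the ventricles. CUBN, the cubilin receptor that takes up filtered protein (Afu021679), had 236, 8.34 and 663 normalized counts in the atria, against 27.0, 47.8 and 30.9 in the ventricles, and its partner LRP2 had 91.2, 3.79 and 397, against 1.08, 15.4 and 2.69. In each of these rows atrium 2 lay below or among the ventricles, and none passed with all libraries. Without atrium 2, this CUBN row passed at 3.49 (adjusted p = 0.00165). CUBN row Afu021678 and CD209 rows Afu008491 and Afu005860 were also low in atrium 2 and did not pass. CD209 row Afu005744 was not low there. It had 258, 538 and 984 normalized counts in the atria, against 60.5, 59.8 and 43.0 in the ventricles, and passed at 3.24 ± 0.48. CUBN row Afu011180 had 26.3, 0.758 and 37.2 normalized counts in the atria, against no read in the ventricles, so it was low in atrium 2 too. It passed at 3.61 ± 1.40 (adjusted p = 0.0441), a call lost without atrium 1 (0.171), atrium 3 (0.137) or any ventricle (0.0842 to 0.085).

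In further named rows, outside the 93, atrium 2 was above the ventricles but far below the other atria. Rows of Cda5 and FIBCD1 had the highest counts of those given here. At lower counts the same held for CUBN row Afu011180, MUC20 (Afu017854), CA4 (Afu000373) and PTH1R (Afu000304). Cda5, named for a fly chitin deacetylase (Afu023000), had 22954, 345 and 16811 normalized counts in the atria, against 5.40, 63.2 and 82.0 in the ventricles (7.30 ± 1.74, adjusted p = 0.00914). FIBCD1, a receptor for acetylated sugars such as chitin (Afu023546), had 716, 3.03 and 3370 normalized counts in the atria, against no read in the ventricles. Pooled over the atria it was at least 1090-fold higher, a bound that rests on atria 1 and 3. Its call was lost without atrium 1 (adjusted p = 0.0573) or any ventricle (0.0528 to 0.0586). FIBCD1 row Afu010346 was atrial (1.63), a call lost without atrium 3 (0.0846) or any ventricle (0.0781 to 0.144). Row Afu009288 was ventricular (-1.05), a call lost without atrium 1 (0.0644). Rows Afu010351 and Afu023547, which are among the 93, did not pass (0.0604 and 0.0514). Among the unnamed rows of the 93, Afu015130 had 8454, 90.2 and 19635 normalized counts in the atria, against 178, 436 and 183 in the ventricles, and Afu013457 had 8010, 19.0 and 11156, against 1.08, 0 and 59.1.

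**Figure D4:**
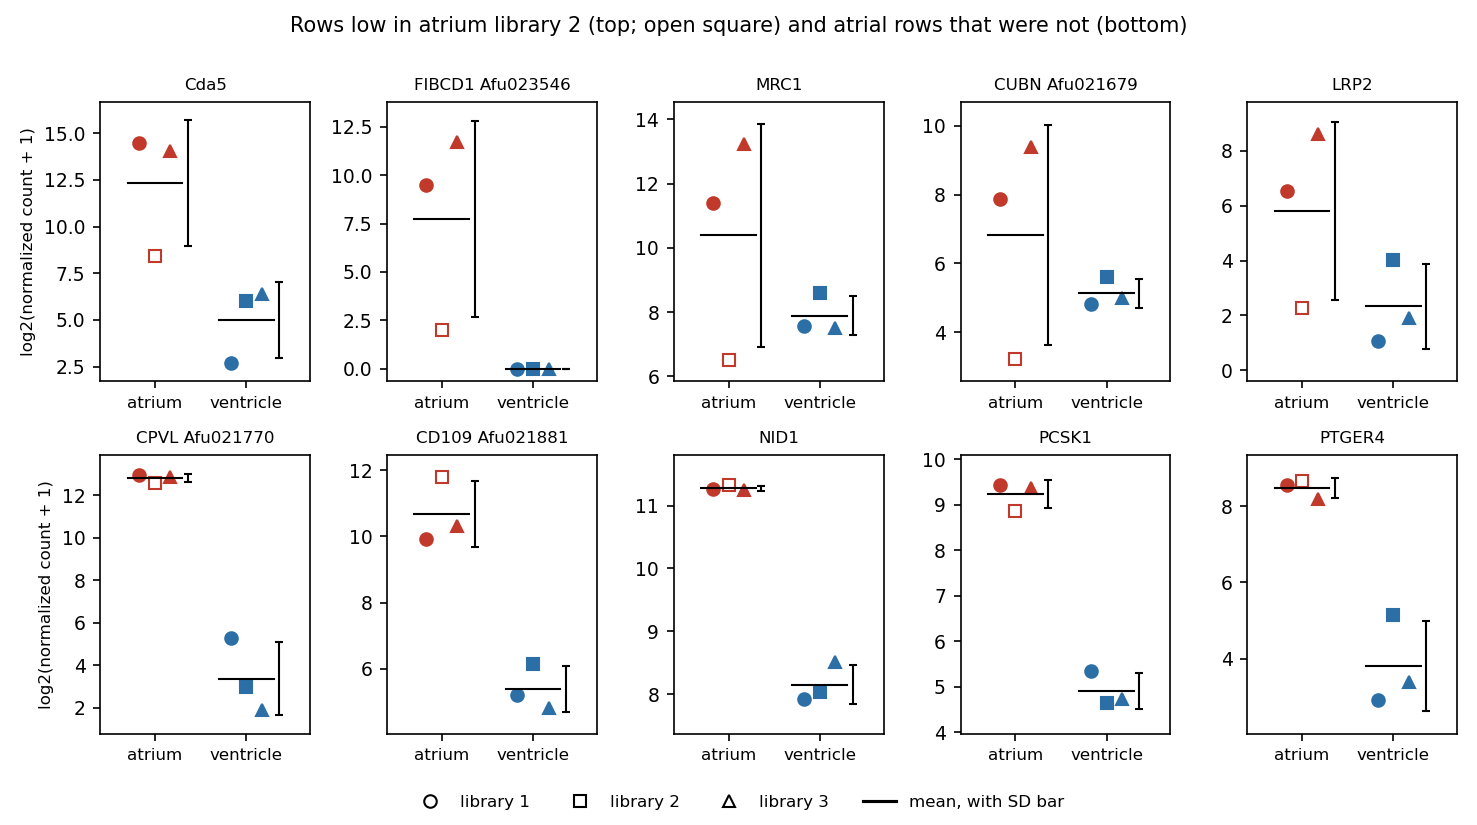
Log2(normalized count + 1) per library, atria (red) left of ventricles (blue), with mean and SD (n = 3); the open red square is atrium 2. Upper row: Cda5, FIBCD1, MRC1, CUBN and LRP2, where atrium 2 lies far below the other atria. Lower row: CPVL, CD109, NID1, PCSK1 and PTGER4, where atrium 2 lies near them or above.

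Immune and lectin genes as a list had 27 of 43 rows atrial, 3 ventricular and 13 not past (median 1.89). Over all tested rows 46.9% were atrial and 37% ventricular. Without atrium 2 the list had 33 atrial rows (median 2.56). It had 18 to 21 without each of the other libraries in turn and 16 after quantile normalization. Some rows did not follow the atrium 2 pattern. CD109, a protease-binding protein of the complement family (Afu021881), had 963, 3537 and 1276 normalized counts in the atria, against 35.6, 70.0 and 26.9 in the ventricles (5.29 ± 0.56), with atrium 2 the highest; a second row (Afu021879) did the same (5.03 ± 0.64). The third CD109 row (Afu014406) was low in atrium 2, with 341, 29.6 and 972 normalized counts in the atria, against 55.1, 88.8 and 60.5 in the ventricles (1.68, adjusted p = 0.194). The 4 GIMAP7 rows, immune-cell GTPases in vertebrates, were atrial at 1.12 to 2.25, the lowest falling to 0.97 without ventricle 3, and TOLL6, a Toll receptor name from the fly, at 2.43 ± 0.37. CECR1, a secreted adenosine deaminase, was ventricular in 2 rows (-2.57 ± 0.23 and -1.85 ± 0.26) and atrial in the third (1.96 ± 0.38). The hemocyte markers in the table (C1QL3, C1QTNF3, F13A1, TLR1, TLR3 and c3, in 8 rows) summed to 414, 420 and 1331 normalized counts in the atria, against 145, 93.9 and 202 in the ventricles; 5 rows passed, all atrial. Of these, C1QL3, a TLR1 row (Afu020298) and c3 lost their calls without atrium 1 (adjusted p = 0.0767, 0.0837 and 0.0544). C1QL3, with no read in the ventricles, also lost its call without atrium 3 (0.0683) or any ventricle (0.0669 to 0.0724), the TLR1 row without atrium 3 (0.14), ventricle 2 or ventricle 3 (0.105 each), and c3 without atrium 2 (0.0504). Their part in the immune differences was not tested.

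Genes of uptake and excretion had 8 of 16 rows atrial and 4 ventricular (median 2.02), an atrial share near the 46.9% of all tested rows, and 11 atrial rows without atrium 2 (median 3.54). The atrial count was 4 without atrium 1 or ventricle 1 and 5 without atrium 3 or ventricle 3. AMN, which anchors cubilin, was atrial in all libraries, with 25.5, 23.5 and 51.2 normalized counts in the atria, against 0, 0 and 5.37 in the ventricles (4.13 ± 0.90). AQP8, a water channel, had 24.8, 39.4 and 55.8 normalized counts in the atria, against no read in the ventricles, at least 30.5-fold higher in the atria. The excretory or podocyte markers (AMN, CUBN, LRP2 and the slit-diaphragm protein NPHS1, in 6 rows) summed to 542, 59.1 and 1554 normalized counts in the atria, against 92.9, 149 and 71.2 in the ventricles; NPHS1 did not pass (-0.96, adjusted p = 0.0871).

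Carbonic anhydrases, which interconvert carbon dioxide and bicarbonate, differed by row. CA7 was ventricular, with 205, 188 and 110 normalized counts in the atria, against 851, 1986 and 695 in the ventricles (-2.70 ± 0.45). One CA4 row was atrial (Afu000373; 74.4, 4.55 and 183 normalized counts in the atria, against 0, 0 and 2.69 in the ventricles) and the other ventricular (Afu002046, -2.75 ± 0.72). The atrial call was lost without atrium 1 (adjusted p = 0.0566), ventricle 1 (0.0538) or ventricle 2 (0.0547). A CA14 row (Afu011547) was atrial at 2.01 ± 0.39.

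The row with the highest mean atrial level had no symbol. Afu012226 had 147612, 76728 and 93338 normalized counts in the atria, against 1038, 294 and 71.2 in the ventricles (8.50 ± 0.89, adjusted p = 0.00072). It was high in every atrium, atrium 2 included. A second unnamed atrial row, Afu020269, passed narrowly (1.02 ± 0.24) and was under the 2-fold limit without atrium 2 (0.81) or ventricle 3 (0.93). The unnamed ventricular rows with the highest levels were Afu008069 (-1.80 ± 0.22) and Afu011552 (-1.24 ± 0.20).

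ALDH1A1, which makes retinoic acid, was atrial with 597, 981 and 611 normalized counts in the atria, against 28.1, 37.6 and 73.9 in the ventricles (4.02 ± 0.41); of 6 retinoid and lipid rows 4 were atrial and 1 ventricular, and 2 atrial calls were left without atrium 1, atrium 3, ventricle 1 or ventricle 3. BCHE, a cholinesterase (Afu017725), had 1064, 838 and 1379 normalized counts in the atria, against 58.3, 85.4 and 33.6 in the ventricles (4.25 ± 0.38). Smaller lists gave 4 of 5 cell cycle rows atrial (2 without atrium 1, atrium 3 or ventricle 3), 1 atrial and 3 ventricular of 7 ubiquitin and proteasome rows, 2 and 5 of 9 cilia and microtubule rows, 3 and 1 of 7 glycan rows, and both rows atrial for iron and oxygen handling (0 after quantile normalization) and for epithelium and mucus. Of the last, MUC20, a mucin, lost its call without atrium 1 (adjusted p = 0.15), atrium 3 (0.131) or any ventricle (0.0819 to 0.0836). Over all tested rows 46.9% were atrial and 37% ventricular, and the cell cycle median of 1.22 was that of all rows. No cytosolic ribosomal protein and no germline gene of the lists was among the tested rows.

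The snail chamber differences were then compared with those of the scallop (Mizuhopecten yessoensis, a bivalve), over 323 symbols tested in both tables. The tables were normalized separately, and each listed only genes selected as different in its species. Where a symbol had several rows, the row with the highest mean stood for it in each species, so other rows of the symbol can differ. Of the shared symbols 255 had the same direction in both species (76 atrial, 179 ventricular) and 68 opposite directions. A limma interaction of species and chamber was past an adjusted p of 0.05 for 76 symbols (23.5%), 63 of them with opposite directions. Selection for a change in each species already sets symbols of opposite direction far apart. That most of them passed therefore follows largely from the selection.

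Energy genes of the lists pointed to the ventricle in both species. All 54 shared respiratory symbols, 20 mitochondrial ribosomal, 26 other mitochondrial and 13 fuel symbols were lower in the atrium in both, with 0 interactions past the threshold in these lists. The gene lists were edited after the symbols were seen, and the list of other mitochondrial genes was made only then. Outside these lists, the mitochondrial enzymes GLUD1 (1.53 in the snail against -1.58 in the scallop, interaction adjusted p = 0.000167) and ABAT (1.17 against -1.14, 0.00789) had opposite directions. ATP5B differed by -1.65 in the snail and -1.73 in the scallop, an interaction of 0.08 ± 0.28 (adjusted p = 0.946). The rows standing for the 7 shared contractile symbols had negative differences in both species, although the unc-22 row did not pass in the snail (-0.85, adjusted p = 0.0977). The snail difference was larger for Tm2 (-2.95 against -1.30, adjusted p = 0.0116) and Mlc1 (-3.32 against -1.80, adjusted p = 0.0269). The other snail rows of unc-22 (Afu013995, 3.37) and Mlc1 (Afu021142, 3.26) were atrial.

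Of 13 shared receptor and neural symbols, 8 passed the interaction test, against 23.5% of all 323 shared symbols. Of the 13, 5 were atrial in both species. Opposite directions, which the selection already sets apart, were seen in 2 (atrial in the snail) and 6 (ventricular in the snail). SALL1, ALDH1A1 and TCF21, given next, belong to other lists. SALL1 had 10.2, 6.07 and 13.3 normalized counts in snail atria, against 78.8, 88.8 and 51.1 in snail ventricles, but 584, 760 and 785 in scallop atria, against 9.96, 0 and 30.0 in scallop ventricles (snail minus scallop -9.45 ± 1.31, adjusted p = 0.000116). PTGER4, atrial in the snail at 4.67, was ventricular in the scallop at -2.10 (6.77 ± 0.73, adjusted p = 1.26e-05), and so was ALDH1A1 (4.02 against -1.67, adjusted p = 4.9e-05). PTH1R, a peptide hormone receptor name, went the other way in its row of highest mean (Afu000196; -1.46 against 4.71, adjusted p = 0.000239). The other two snail PTH1R rows were atrial like the scallop row (Afu001920, 1.17; Afu000304, 3.48). The first of these lost its call without atrium 2 (adjusted p = 0.0667) or ventricle 1 (0.0627), and the second without each library other than atrium 2 (0.0723 to 0.121). TCF21 was atrial in the snail (4.92) and ventricular in the scallop (-1.90, adjusted p = 0.000464).

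**Figure D5:**
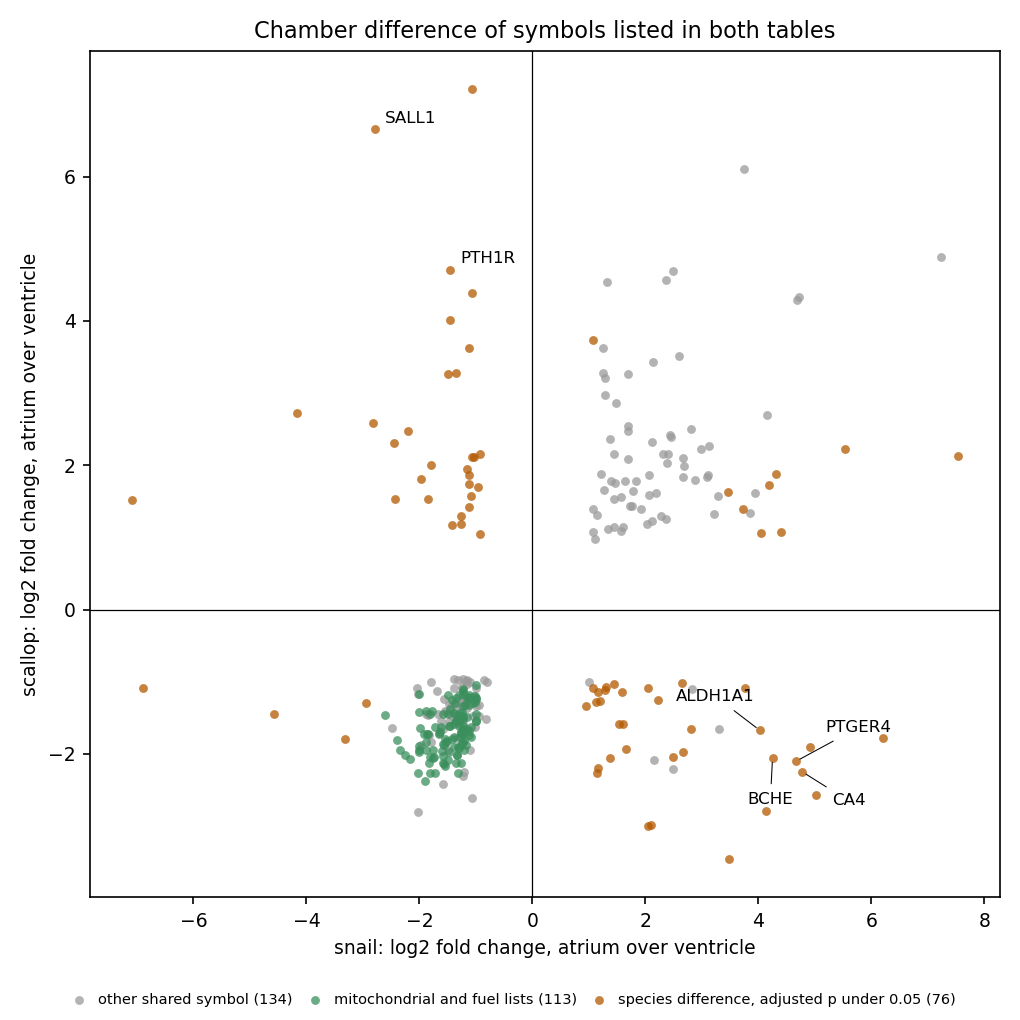
Log2 fold change of atrium over ventricle in the snail (x axis) and the scallop (y axis) for the 323 symbols tested in both tables. Genes of the mitochondrial and fuel lists (green) cluster at lower left, ventricular in both species. Symbols past the interaction threshold (orange, 76) lie mostly in the 2 quadrants of opposite direction, where the selection in each table already sets the species apart.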

How the data were processed

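RNA sequencing of snail atria and ventricles (3 libraries each) was analysed from the authors' deposited table. Its values are normalized counts per gene, a signal scale in which the authors divided counts by a size factor per library. The deposited table also holds the authors' log2 fold changes and p-values, used only to describe how its rows were selected. The deposited test statistic, a score (fold change over its standard error), was not used. The submitters' processing notes name DESeq2 1.20.0, StringTie 1.3.3b, HISAT2 2.0.5 and featureCounts 1.5.0, with no roles. Genome build, annotation and strand setting are not given in the sources used here. Because only selected genes are listed, total library size is unknown. In each library 100% of values came out as whole reads, within 0.01 read, after multiplying by the size factor recovered from low values.

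Rows with a mean of at least 10 were tested with limma 3.58.1 (R 4.3.3) on log2(normalized count + 1), without a replicate block, and called at a Benjamini-Hochberg adjusted p under 0.05 and a 2-fold change. The planned count model, edgeR (4.0.16), became an alternative because the deposited values are normalized, and DESeq2 (1.42.0) was another; both used recovered reads. Scripts were tested on simulated data. Floors of 3 reads over a group cover counting error only, and 0 sample columns were unmatched. The species comparison was a limma interaction over shared symbols.

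The members and gene lists were chosen with earlier results of these data known, and 69 symbols were added to lists and 6 dropped after the table's symbols were seen. Among symbols past the threshold without overlap, the text could name per direction the 8 largest changes with a mean of at least 50 and the 6 highest means. It could also name the 4 highest members and 1 largest change of each list, and all contractile, calcium and cardiac transcription factor rows. All copies of a named symbol and 2 unnamed rows per direction were allowed too. So were the 6 largest species interactions past the threshold whose chambers did not overlap in either species. Other named genes were chosen after their values were seen. Alternatives were another pseudocount, other filters, TMM and quantile scaling, a replicate block, and leaving out each library; results without atrium 2, as the library that stands apart, were added after seeing the data. A gene withheld from the text is not reported here.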

Additional observations from a re-analysis of the deposited data

Results flagged for a closer look

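Several chamber differences were not the same in snail and scallop. The limma interaction of species and chamber passed an adjusted p of 0.05 for 76 of 323 shared symbols, with the 2 tables normalized separately. Symbols of opposite direction were already set apart by the selection in each table, so their passing is no independent evidence. Snail minus scallop, the log2 difference of atrium over ventricle was -9.45 ± 1.31 for SALL1, 7.04 ± 1.42 for CA4, 6.77 ± 0.73 for PTGER4, 6.31 ± 0.91 for BCHE, -6.17 ± 0.97 for PTH1R and 5.69 ± 0.71 for ALDH1A1 (SE). These 6 were chosen as the largest interactions past the threshold among symbols whose chambers did not overlap in either species. Their direction was opposite for the rows compared, those of highest mean for each symbol. Other snail rows went the scallop's way for CA4 (Afu002046, -2.75, against -2.25 in the scallop) and PTH1R (Afu001920, 1.17, and Afu000304, 3.48, against 4.71 in the scallop). The snail CA4 row compared (Afu000373, 4.78) lost its own call without atrium 1, ventricle 1 or ventricle 2 (adjusted p = 0.0566, 0.0538 and 0.0547).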

How the results depend on the processing

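With all libraries 1249 rows passed. The count was 1021 with a pseudocount of 10, 1595 with no filter on low values, 720 with a mean of at least 50, 1225 with TMM, 914 with quantile normalization, 1322 with edgeR and 1374 with DESeq2. Leaving out 1 library gave 961 to 1282. Same-numbered atria and ventricles did not deviate together (r = -0.059, -0.092 and 0.059), so the numbers were not taken as pairing; with the replicate block 1170 rows passed (640 atrial, 530 ventricular), not every library correlated best with its own number, and calcium atrial calls were 3.

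With a mean of at least 50, atrial calls were 323 in all, 1 calcium, 2 cell cycle, 4 stress, 6 receptor and neural, 4 transcription factor, 9 signalling, 18 matrix, 3 excretion, 17 immune, 5 solute carrier, 9 peptidase, 1 retinoid and 4 GTPase rows; ventricular calls were 4 ion channel, 4 receptor and neural and 3 cilia rows, and species interactions 39. This setting tests fewer rows. With quantile normalization atrial calls were 319 in all, 2 calcium, 1 cell cycle, 2 stress, 9 receptor and neural, 7 transcription factor, 11 signalling, 16 immune, 6 solute carrier, 1 retinoid and 3 GTPase rows, and ventricular calls 8 contractile and 8 signalling rows; the cause was not tested. It turned 65 of 1489 rows, among named rows CAMK2G (-0.09), TMEM38B (-0.16), NCAPH (-0.00) and C1QTNF3 (-0.21). A pseudocount of 10 gave 2 calcium and 2 cell cycle atrial calls. With no filter there were 34 receptor and neural and 25 solute carrier atrial calls. Species interactions were 44 over symbols with 1 copy in each table. Leaving out 1 library gave 2 to 5 calcium, 2 to 4 cell cycle, 4 to 11 excretion and 2 to 3 retinoid atrial calls, and 5 to 8 ion channel and 8 to 13 stress ventricular calls.

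The table lists selected genes only, so unlisted genes, total depth and the share of all genes that differ were not analysed here. With 3 libraries a chamber and 1 atrium apart, calls in rows that vary among atria are the least certain.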
